A study of Mus musculus with 36 samples.

Results

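The first 2 days of direct cardiac reprogramming were examined by comparing accessible chromatin in 3 libraries of reprogramming cells with 3 libraries of infected control fibroblasts, 6 of the 36 samples of the series. The reprogramming cells were sorted at day 2 after retroviral delivery of Gata4, Mef2c and Tbx5 (GMT), were cultured with sb431542 and xav939, and were collected as alpha-MHC-GFP-positive cells. The control fibroblasts were infected with a dsRed retrovirus, received neither inhibitor, and were collected as dsRed-positive cells at day 7. Both groups started from Thy1-positive, GFP-negative cells grown out of neonatal heart explants of CD-1 mice that carry the alpha-MHC-GFP reporter. The factors, the inhibitors, the marker used for sorting and the days in culture (2 against 7) all differ between the groups and cannot be told apart here. The GFP sort keeps cells in which the reporter is already active, so the day 2 libraries describe those cells and not all infected ones. In libraries made from many cells, a lower count may come from fewer cells with an open site or from less openness per cell, and these cannot be told apart.

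ATAC-seq maps open chromatin with a transposase that inserts sequencing adapters where DNA is not wrapped in nucleosomes, so a peak of reads marks a promoter, an enhancer or another accessible element. GATA4, a zinc finger factor, MEF2C, a MADS-box factor, and TBX5, a T-box factor, act together in heart development, and their joint delivery turns on cardiac genes in fibroblasts. Sb431542 blocks the type I receptor kinases of TGF-beta signalling, a pathway that drives matrix production in fibroblasts, and xav939 stabilises axin and thereby lowers canonical Wnt signalling. Sites that gain accessibility during reprogramming are commonly read as candidate cardiac elements and sites that lose it as fibroblast elements. Peaks are given here by position in mouse build mm9, as the deposited table lists them, and no gene is named for them because no annotation of that build was used. For the same reason the cell types could not be checked against marker genes.

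The table held 1393120 regions on chromosomes 1 and 10 to 16 and on part of chromosome 17, of which 144810 passed a filter on low counts and are called peaks below. Totals were 2.29, 10.1 and 5.92 M counts in day 2 replicates 1, 2 and 3, against 17.3, 6.77 and 2.34 M in fibroblast replicates 1, 2 and 3. Values are counts scaled by library size (CPM), with library sizes adjusted by trimmed means of log ratios. Leaving out the chromosome 1 region with most counts, tested peaks took 69.6, 73.0 and 72.4% of the counts at day 2. In fibroblasts they took 64.2, 65.2 and 71.1%. This difference did not reach significance (exact permutation test, two-sided, p = 0.2, where 3 against 3 can reach no less than 0.1). Day 2 replicate 1 stood apart from the other 2 day 2 libraries at strong peaks. Its median log2 ratio to their mean was -0.99 at peaks with an average log2 CPM of 5 or more and -0.59 between 4 and 5, but lay between -0.10 and 0.09 in the classes below 3. By chi-square per degree of freedom, fibroblast replicates 1 and 2 were the closest pair, at 1.36 against 1.93 to 3.54 for the other pairs within a group. By Pearson correlation of log2 CPM they were at 0.919, and day 2 replicates 2 and 3 at 0.922. All libraries were counted separately. The series describes its replicates as biological without saying whether fibroblast replicates 1 and 2 derive from different cultures. In these 2 fibroblast libraries the chromosome 1 region with most counts took 49.4 and 49.3% of the totals, against 14.5% in fibroblast replicate 3. With these 2 libraries summed as 1, 23234 peaks were called (15413 higher and 7821 lower), in place of the 29402 described next.

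At day 2, accessibility differed from fibroblasts at 20.3% of tested peaks. It was higher at 17683 peaks, 12.2% of those tested, and lower at 11719, 8.09% (edgeR quasi-likelihood test, Benjamini-Hochberg adjusted p under 0.05 over all peaks). The changes were mostly of 2-fold or more: 16861 of the higher peaks and 10802 of the lower ones passed that size. At least 4-fold changes were more frequent among the rises, with 7345 peaks (41.5%) higher by that much and 2962 (25.3%) lower. At 8-fold or more there were 1922 rises and 329 falls, and at 16-fold or more 445 rises and 22 falls. All 3 day 2 libraries lay above all 3 fibroblast libraries in 16167 of the higher peaks (91.4%), and all 3 lay below in 10785 of the lower ones (92.0%). Over all tested peaks, all 3 day 2 libraries were above in 18.1% and below in 15.9%. The number of calls fell to 18765 without fibroblast replicate 1 (11546 higher and 7219 lower), and lower calls also fell to 7294 and 7025 on leaving out day 2 replicate 2 or 3, and to 7255 on leaving out fibroblast replicate 2. Without day 2 replicate 1 there were 18549 higher and 8102 lower calls. Of the calls, 60.1% were higher. This share was 54.0% when day 2 and fibroblasts were fitted alone and 52.8% with scaling that followed peak level. It was 66.3% with fibroblast replicates 1 and 2 summed as 1 library. On library totals alone it was 92.3%, a scaling that moved the median of all peaks to 0.63 on the log2 scale.

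Tested peaks without any count in fibroblasts or at day 2 were rare, whether called or not. The median level of the higher peaks was 4.32 CPM at day 2 and 1.12 CPM in fibroblasts, and 9590 of them (54.2%) had a fibroblast mean of 1 CPM or more, against 66.9% of the peaks that were not called. No count in any fibroblast library was found in 89 of the 17683, and in 99 of all 144810 tested peaks. The lower peaks had a median of 1.26 CPM at day 2 and 4.18 CPM in fibroblasts. The median over these peaks of the day 2 mean as a percentage of the fibroblast mean was 32.3%. Of these 11719 peaks, 1607 had a day 2 mean under 0.5 CPM and 2 had no count in any day 2 library, the only 2 such peaks among all those tested. Since calls need counts in at least one group, peaks at 0 in fibroblasts passed the filter through the reprogramming libraries, and the direction of their calls was set by that.

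Peaks that were not called held most of the counts in tested peaks, leaving out the region of chromosome 1 with most counts: 69.7, 74.96 and 75.5% at day 2 and 79.8, 80.0 and 78.7% in fibroblasts. Peaks called higher held 25.1, 20.0 and 19.8% of the same counts at day 2, against 6.47, 6.40 and 6.53% in fibroblasts. Day 2 replicate 1 was the highest of these libraries, and the fibroblast libraries lay close together. Peaks called lower held 5.22, 5.08 and 4.72% at day 2 and 13.7, 13.6 and 14.8% in fibroblasts. These shares describe the calls and are no test of them, since the same libraries chose the peaks.

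**Figure D1:**
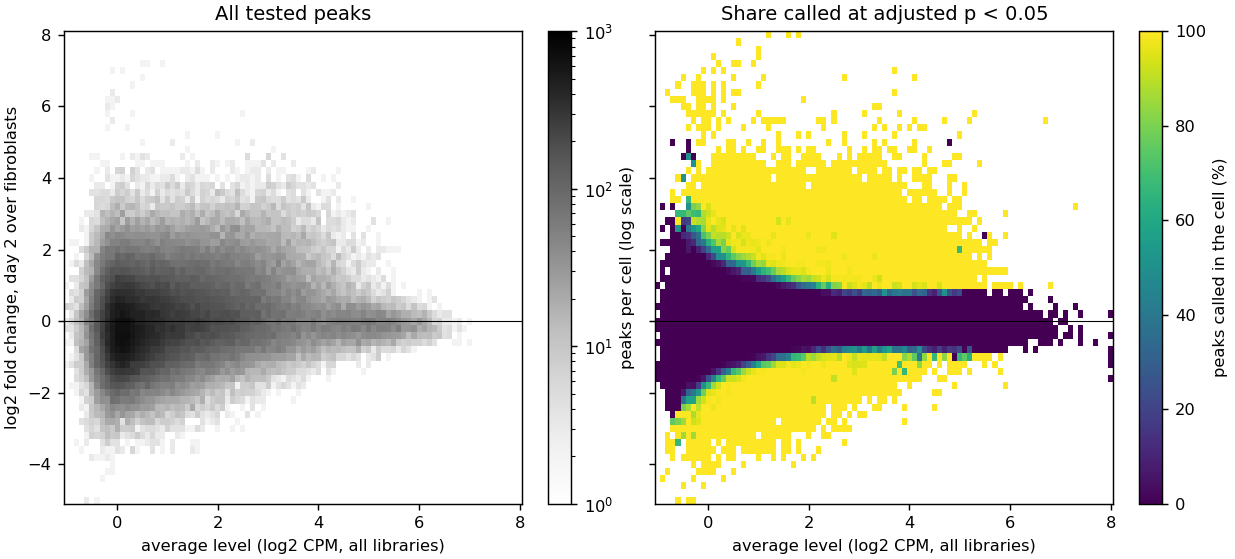
Tested peaks by average level (log2 CPM over all 18 libraries, horizontal axis) and log2 fold change of day 2 over fibroblasts (vertical axis). Shading shows the number of peaks per cell on a log scale on the left and the share of them called on the right, with cells at the edges also holding peaks beyond the axes. Rises spread further than falls, with 7345 peaks at least 4-fold higher and 2962 at least 4-fold lower, and weak peaks needed larger changes to be called.

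Calls were most frequent at peaks of intermediate strength. Among peaks with an average log2 CPM of 3 to 4, 34.5% were higher and 8.37% lower. Between 2 and 3 these shares were 28.8 and 9.80%, and between 1 and 2 they were 17.2 and 10.9%. Among the 2358 strongest peaks, with an average log2 CPM of 5 or more, 5.09% were higher and 1.06% lower. Weak peaks, with an average log2 CPM under 0, were also seldom called, at 2.16% higher and 4.60% lower, and below 0.5 the lower calls outnumbered the higher ones. Between 0.5 and 1 there were 2053 higher and 2345 lower calls, an order that reversed to 2064 and 1490 without day 2 replicate 1 and to 1813 and 1531 without fibroblast replicate 3. The test has less power at low counts, so shares in the weak classes are not comparable with the others in terms of how many sites changed. The average is also taken over all 18 libraries, most of them of GMT cells. A peak that rose and stayed high is thereby placed in a stronger class, and one that fell and stayed low in a weaker class. The balance of directions between classes is partly set by this and is a description only.

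Calls at strong peaks stayed scarce without day 2 replicate 1, but their balance shifted. Without that library, 165 of the strongest peaks (7.00%) were higher and 2 (0.0848%) were lower, against 120 and 25 with it. Between 4 and 5 the lower calls fell to 23 (0.592%) without it, against 125 with it, while the higher calls numbered 890 without it and 809 with it. Lower calls among the strongest peaks also numbered 9 without fibroblast replicate 1 and 6 without fibroblast replicate 3, and between 4 and 5 they numbered 59 without fibroblast replicate 1 and 37 without fibroblast replicate 3.

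**Figure D2:**
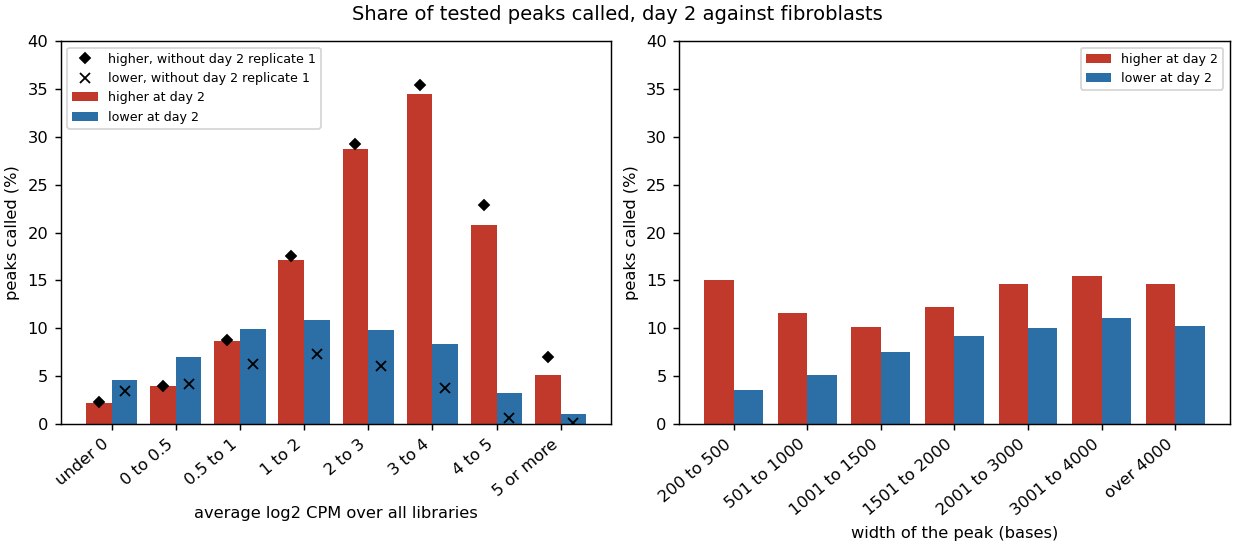
Share of tested peaks called higher (red bars) and lower (blue bars) at day 2, by average log2 CPM over all 18 libraries on the left and by peak width in bases on the right. On the left, diamonds and crosses give the shares without day 2 replicate 1. The higher share peaks at 34.5% for an average log2 CPM of 3 to 4, and by width the lower share is highest, at 11.03%, for peaks above 3000 and up to 4000 bases.

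Calls also varied with peak width, differently for the directions. The share called lower was 3.58% for peaks of 200 to 500 bases, 7.48% for those above 1000 and up to 1500 bases and 11.03% for those above 3000 and up to 4000 bases. The share called higher varied less, between 10.2 and 15.4% in the same classes, and was 15.1% for the shortest class. Wider peaks also hold more counts. Among peaks with an average log2 CPM of 2 to 3, the share called higher was 43.7% above 500 and up to 1000 bases and 11.9% over 4000 bases, while the share called lower was 4.08 and 11.4%. The 68 peaks of 200 to 500 bases in this class were called higher in 29.4% and lower in 1.47%. Between chromosomes the shares differed little, with 11.1% (chromosome 14) to 14.6% (chromosome 11) higher and 6.25% (chromosome 17) to 9.61% (chromosome 1) lower.

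Peaks with the largest rises were named separately for those with a fibroblast mean of at least 1 CPM and those below it. Of the first kind, 8740 peaks were eligible, with non-overlapping groups and an average log2 CPM no lower than 1. The chromosome 14 peak at 63819108 to 63820631 had 74.3, 170 and 100 CPM at day 2 and 1.28, 2.78 and 3.24 CPM in fibroblasts (log2 fold change 5.73, SE 0.46, adjusted p 2.75e-14). At 83800334 to 83802523 on chromosome 13, the day 2 libraries had 72.4, 181 and 101 CPM and the fibroblast libraries 3.01, 1.62 and 1.80 CPM (5.67, SE 0.45, adjusted p 2.75e-14). On the same chromosome, 83730819 to 83732353 held a peak with 82.6, 128 and 46.9 CPM at day 2 and 1.82, 1.85 and 1.44 CPM in fibroblasts (5.61, SE 0.45). In these 3 peaks day 2 replicate 2 was the highest library, and no fibroblast library exceeded 3.24 CPM. They lie in a pair of short stretches taken up below, where counts do not tell chromatin from delivered factor sequence.

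The other 2 peaks of this kind lie elsewhere. On chromosome 14, the peak at 20631417 to 20636434, 5017 bases wide, had 42.6, 73.9 and 101 CPM at day 2 and 2.74, 1.39 and 1.08 CPM in fibroblasts (log2 fold change 5.19, SE 0.58, adjusted p 7.92e-08). Its mean was 29.0 CPM at day 7, 18.6 CPM at day 14 and 19.0 CPM at day 21 of reprogramming. On chromosome 11, 85616836 to 85618430 held a peak with 35.2, 24.5 and 33.2 CPM at day 2 and 1.37, 0.463 and 1.80 CPM in fibroblasts (4.67, SE 0.43, adjusted p 1.15e-12). Its means at days 7, 14 and 21 were 52.9, 34.3 and 34.8 CPM. The day 2 mean of 31.0 CPM lay near those of days 14 and 21 and below that of day 7.

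Among 3931 eligible rises with a fibroblast mean under 1 CPM, 4 of the 5 named had no count in any of the 3 fibroblast libraries. On chromosome 11, the peak at 57780029 to 57780707 had 5.12, 2.69 and 5.09 CPM at day 2, at least 21.8-fold higher than 3 counts over the fibroblast group (0.166 CPM). The peak at 88476595 to 88477346 on chromosome 1 had 5.76, 2.62 and 3.67 CPM, at least 20.0-fold higher. At 163043787 to 163045464 on chromosome 1 the day 2 values were 4.80, 3.00 and 2.85 CPM, at least 19.5-fold higher. These are small peaks, resting on 76, 70 and 68 counts summed over the day 2 libraries. One more, at 54332748 to 54333168 on chromosome 11, had 2.88, 2.23 and 2.44 CPM and 50 counts, at least 14.3-fold higher. The last, at 83795713 to 83796137 on chromosome 13, was far stronger, with 42.3, 53.3 and 35.0 CPM at day 2 and 0.547, 0 and 0 CPM in fibroblasts (log2 fold change 7.05, SE 0.57, adjusted p 5.51e-12), and lies in the chromosome 13 stretch described below. In all, 99 tested peaks had no fibroblast count, of which 89 were called higher, with a median day 2 mean over the 99 of 0.973 CPM.

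The 8 largest falls, out of 5386 eligible, were of peaks that all 3 fibroblast libraries held well above the day 2 libraries. The peak at 85803917 to 85805438 on chromosome 10 had 0.320, 0.847 and 1.63 CPM at day 2, against 19.2, 13.4 and 9.73 CPM in fibroblasts (log2 fold change -3.91, SE 0.41, adjusted p 5.16e-11). On chromosome 17 the libraries at 13090609 to 13091791 had 1.28, 1.46 and 1.22 CPM at day 2, against 19.8, 28.0 and 12.6 CPM in fibroblasts (-3.89, SE 0.36, adjusted p 1.41e-12). At 109554228 to 109556087 on chromosome 10 the values were 0.960, 0.693 and 0.815 CPM at day 2 and 10.9, 9.48 and 14.4 CPM in fibroblasts (-3.86, SE 0.43). In each of these the highest day 2 library lay far below the lowest fibroblast library.

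Falls of similar size were spread over other chromosomes. On chromosome 14, the peak at 50113185 to 50114304 had 1.60, 1.00 and 0.611 CPM at day 2, against 14.1, 13.9 and 12.6 CPM in fibroblasts (log2 fold change -3.74, SE 0.38, adjusted p 2.17e-11). Also there, 105847281 to 105850086 held a peak with 0.320, 0.770 and 1.02 CPM at day 2, against 9.85, 9.48 and 10.8 CPM in fibroblasts (-3.70, SE 0.41). A further 3 named falls were on chromosome 1, at 43832428 to 43833970, 45408145 to 45409956 and 71657657 to 71658846. Their log2 fold changes were -3.70, -3.69 and -3.67, and the means were 0.487, 1.32 and 0.929 CPM at day 2, against 6.75, 13.6 and 12.2 CPM in fibroblasts. At the fall on chromosome 10 at 85803917, the mean was 0.90 CPM at day 7, 0.507 CPM at day 14 and 2.15 CPM at day 21, so its day 2 level was already near the later ones.

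Rises and falls with the highest counts were named as a separate class, since deep peaks are measured with least counting error. They were ranked by the average log2 CPM over all 18 libraries, later days included. First among the rises was the peak at 55584482 to 55587987 on chromosome 14, with 77.2, 115 and 147 CPM at day 2 and 13.2, 14.3 and 10.1 CPM in fibroblasts (log2 fold change 3.16, SE 0.40, adjusted p 9.28e-09). Second was the chromosome 14 peak at 63858329 to 63860065, whose day 2 mean was above that of the first. It had 46.7, 409 and 366 CPM at day 2 and 6.57, 5.09 and 6.13 CPM in fibroblasts (5.52, SE 0.91, adjusted p 0.000431), with day 2 replicate 1 far below the other 2. This peak lies in the chromosome 14 stretch from 63819108 taken up below, where counts do not tell chromatin from delivered factor sequence. On chromosome 11, the peaks at 70513153 to 70516932 and at 49623960 to 49626217 rose by much less, with log2 fold changes of 1.01 (SE 0.33, adjusted p 0.0220) and 1.05 (SE 0.32, adjusted p 0.0125). The first of these had 43.5, 76.8 and 64.6 CPM at day 2 and 28.6, 30.1 and 33.5 CPM in fibroblasts, and the second had 64.0, 61.9 and 84.7 CPM at day 2 and 29.7, 34.0 and 38.6 CPM in fibroblasts. Neither call held on leaving out single libraries: the first missed the threshold on leaving out any 1 of the 6 libraries except day 2 replicate 1 (adjusted p 0.0534 to 0.116), and the second without day 2 replicate 3, fibroblast replicate 1 or fibroblast replicate 2 (0.0600 to 0.0929).

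All 4 of the most counted falls had their lowest value in day 2 replicate 1. At 174429790 to 174434030 on chromosome 1, the values were 15.7, 47.8 and 54.4 CPM at day 2 and 140, 149 and 128 CPM in fibroblasts (log2 fold change -1.81, SE 0.37, adjusted p 0.000132), and this call held without any single library. On chromosome 17, 17962623 to 17966224 held a peak with 9.60, 44.0 and 43.8 CPM at day 2 and 87.8, 80.7 and 81.8 CPM in fibroblasts (-1.34, SE 0.41, adjusted p 0.0144). Next was the chromosome 11 peak at 86393615 to 86396673, with 25.6, 64.1 and 48.3 CPM at day 2 and 89.0, 90.9 and 129 CPM in fibroblasts (-1.14, SE 0.37, adjusted p 0.0200). At 63401942 to 63409828 on chromosome 13, day 2 libraries had 17.9, 22.6 and 45.8 CPM and fibroblast libraries 68.3, 76.8 and 53.0 CPM (-1.20, SE 0.35, adjusted p 0.00805). Without day 2 replicate 1 these 3 peaks stood at -0.80, -0.74 and -0.85 with adjusted p of 0.160, 0.207 and 0.121. The chromosome 17 peak also missed the threshold without any 1 of the fibroblast libraries (0.0534 to 0.0646). So did the chromosome 11 peak without day 2 replicate 3 (0.108), fibroblast replicate 2 (0.0727) or fibroblast replicate 3 (0.189), and the chromosome 13 peak without day 2 replicate 2 (0.0868) or fibroblast replicate 2 (0.111). With fibroblast replicates 1 and 2 summed as 1 library, these 3 falls and the rises at 70513153 and 49623960 all missed the threshold (edgeR adjusted p 0.0609 to 0.0895).

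Changes in the same direction lay next to each other. Neighbours here are adjacent tested peaks on either side, so distant neighbours come from places with no tested peak in between. Of the neighbours within 500 bases of a higher peak, 29.3% were also higher and 2.88% were lower. Of the neighbours within 500 bases of a lower peak, 18.9% were also lower and 5.64% were higher. Neighbours of peaks that were not called were higher in 11.7% and lower in 6.62% at this distance. For neighbours 20000 to 50000 bases away from a higher peak the shares were 11.9% higher and 9.96% lower, from a lower peak 12.6% lower and 6.03% higher, and from a peak that was not called 5.53% higher and 9.52% lower. The share of lower neighbours of lower peaks did not fall beyond 5000 to 10000 bases, where it was 12.3%. Over all distances the neighbours of higher peaks were higher in 22.2% and those of lower peaks were lower in 14.8%. These shares are descriptions, since neighbouring peaks share their libraries and, when close, fragments.

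**Figure D3:**
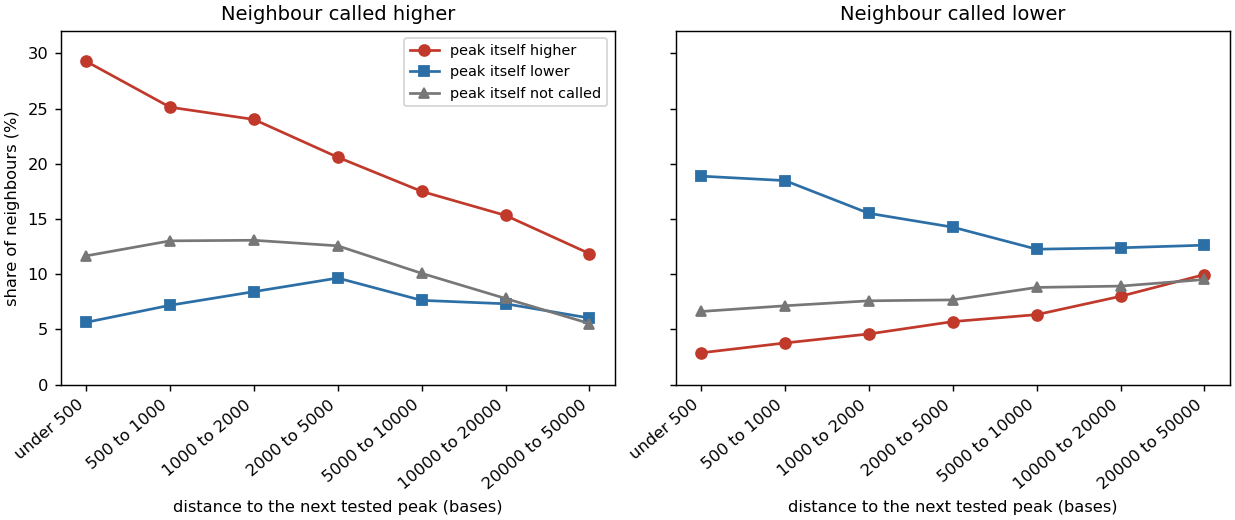
Share of next tested peaks called higher (left) and lower (right) at day 2, against the distance to that peak in bases, for peaks that were themselves higher (red circles), lower (blue squares) or not called (grey triangles). At under 500 bases, 29.3% of the neighbours of higher peaks were higher and 18.9% of the neighbours of lower peaks were lower. At 20000 to 50000 bases these shares were 11.9 and 12.6%.

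Runs of consecutive tested peaks with the same call were more often of rises, which were also more numerous. Of all tested peaks, 12.2% were higher and 8.09% lower. Of the higher peaks 37.9%, and of the lower peaks 26.4%, stood in runs of at least 2. These shares depend on the number of calls, and whether rises cluster more than falls was not tested. There were 75 runs of 5 or more higher peaks and 19 of lower peaks, yet the longest run was one of falls. It held 22 peaks between 85788855 and 85829394 on chromosome 10, whose counts summed to 59.2, 58.7 and 65.0 CPM at day 2 and 278, 254 and 252 CPM in fibroblasts. All day 2 libraries lay at about the same level, far under the fibroblast range, in this run. A run of 21 falls lay between 71647328 and 71677167 on chromosome 1, with 23.7, 34.8 and 31.2 CPM at day 2 and 190, 182 and 203 CPM in fibroblasts. It was followed at 71678426 to 71693829 by 9 more falls, which averaged 12.9 ± 4.59 CPM at day 2 and 54.2 ± 6.39 CPM in fibroblasts (SD, n = 3 each). A further 9 falls lay between 45404511 and 45421465 on chromosome 1.

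The longest run of rises held 17 peaks, and the longest run of falls held 22. Between 137743003 and 137764508 on chromosome 1, 17 higher peaks summed to 101, 264 and 237 CPM at day 2 and 35.8, 38.6 and 41.1 CPM in fibroblasts. Day 2 replicate 1 was the lowest there but still above every fibroblast library. Between 25833824 and 25875451 on chromosome 15, 12 higher peaks summed to 211, 136 and 193 CPM at day 2 and 55.6, 47.9 and 55.5 CPM in fibroblasts. On chromosome 14, 11 higher peaks lay between 35384781 and 35406026, with 64.0, 194 and 174 CPM at day 2 and 40.7, 37.2 and 30.3 CPM in fibroblasts. A neighbouring run of 9, between 35327319 and 35344046, showed the largest ratio of these, with 79.7, 104 and 123 CPM at day 2 and 13.2, 8.56 and 10.4 CPM in fibroblasts, a log2 ratio of the group means of 3.25. Runs were picked by the calls, so these sums carry no test.

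Counts of all regions, tested or not, were also summed in windows of 100000 bases, and there the balance of directions was the reverse of that at peaks. Of 10668 windows tested, 775 (7.26%) were higher and 2355 (22.1%) were lower at day 2. The median of all windows lay at -0.22 on the log2 scale, against -0.0027 for peaks, with library scaling carried over from the peaks. With scaling computed on the windows themselves, 54.0% of 2644 called windows were higher, against 24.8% of 3130 here, and on library totals alone 99.8% of 1626. Regions that did not pass the filter summed to 200301, 200756 and 215104 CPM at day 2 and to 286350, 276232 and 208466 CPM in fibroblasts, with fibroblast replicate 3 within the day 2 range (exact permutation test, two-sided, p = 0.2, smallest possible 0.1). The number of windows called became 1915 on leaving out day 2 replicate 1 (53.7% of them higher), 1304 on leaving out day 2 replicate 2, 1225 without fibroblast replicate 1 and 1407 without fibroblast replicate 2. On tested peaks alone 2886 windows were called, 39.4% of them higher. Among the windows called higher, 3 held no peak called higher, while 451 of the windows called lower held no peak called lower.

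Windows were also sorted by the directions of the peaks called in them. Of the 10668 windows, 3648 held at least 1 higher and at least 1 lower peak. A further 2429 held only higher and 2498 only lower calls, and 2093 held none. Over all tested peaks 12.2% were higher and 8.09% lower, and 7185 windows held at least 10 tested peaks. At such shares, windows with both directions arise without any tie between calls, and whether 3648 differs from that number was not tested. Among windows with at least 10 tested peaks, the largest rises after those of the 2 stretches described below were on chromosome 1 from 137700001, with 224, 488 and 424 CPM at day 2 and 96.4, 107 and 95.8 CPM in fibroblasts (log2 fold change 1.93, SE 0.31), on chromosome 12 from 81100001, with 132, 111 and 116 CPM at day 2 and 38.8, 36.6 and 49.4 CPM in fibroblasts (1.53, SE 0.17), and on chromosome 13 from 12000001, with 208, 191 and 164 CPM at day 2 and 72.7, 66.6 and 56.9 CPM in fibroblasts (1.51, SE 0.20). The largest fall was on chromosome 10 from 85800001, with 81.0, 72.7 and 78.2 CPM at day 2 and 305, 270 and 279 CPM in fibroblasts (-1.89, SE 0.14, adjusted p 5.77e-09). It was followed by the chromosome 1 windows from 45400001 (-1.56, SE 0.14) and from 71600001 (-1.53, SE 0.21), which hold the runs of falls named above, by chromosome 14 from 35700001 (-1.23, SE 0.21) and by chromosome 1 from 174400001 (-1.21, SE 0.27). The windows with the largest rises and falls lie further from 0 than the shift of all windows.

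A pair of short stretches, singled out with earlier results of these data known, held several of the strongest rises. On chromosome 13 between 83730819 and 83802523, 7 of 18 tested peaks were higher at day 2, against 12.2% of all tested peaks, with log2 fold changes of 3.10 to 7.05, and the other 11 were not called, at -0.22 to 1.46. The stretch summed to 389, 673 and 354 CPM at day 2 and 53.3, 48.1 and 43.6 CPM in fibroblasts. Peaks that were called and peaks that were not lay in the same stretch: at 83742641 to 83744555 the mean was 22.02 CPM at day 2 and 25.3 CPM in fibroblasts, whereas at 83772366 to 83773128 it was 65.7 ± 37.3 CPM at day 2 and 0.620 ± 0.429 CPM in fibroblasts (SD, n = 3). On chromosome 14 between 63819108 and 63860065, 12 of 22 tested peaks were higher, against the same 12.2%, with log2 fold changes of 1.23 to 5.80, and the stretch summed to 276, 798 and 619 CPM at day 2 and 57.8, 56.9 and 53.0 CPM in fibroblasts. Reads from the delivered factor sequences, where these match the genome, would be counted in the same regions, and their part in these rises was not tested. Of all higher peaks, 19 lie in these stretches and 17664 elsewhere. Each of these stretches begins and ends at a peak called higher, and its borders were chosen after values were seen. Counts of calls within them, and their shares beside those of all tested peaks, therefore describe the stretches and test nothing.

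The signal of these stretches was high early. The chromosome 13 stretch averaged 48.3 ± 4.84 CPM in fibroblasts, 472 ± 175 at day 2, 284 ± 140 at day 3, 81.5 ± 17.8 at day 7, 56.8 ± 5.05 at day 14 and 58.3 ± 5.47 at day 21 (SD, n = 3 each). The chromosome 14 stretch averaged 55.9 ± 2.58 CPM in fibroblasts, 564 ± 265 at day 2, 442 ± 276 at day 3, 216 ± 12.2 at day 7, 146 ± 45.1 at day 14 and 163 ± 11.1 at day 21. Against the mean of days 7, 14 and 21, 7 of the 18 peaks of the first stretch and 4 of the 22 of the second were higher at day 2, against 2.08% of all tested peaks, and none was lower. Because the stretches were picked for their day 2 signal, these counts also describe them and test nothing.

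At another place on chromosome 14, from 55555113 to 55580442, none of 14 tested peaks was called at day 2 against fibroblasts, at log2 fold changes of -2.21 to 3.08. Most of these peaks are weak, and at this depth smaller changes in them were not detectable. The borders of the stretch were chosen after values were seen and stop short of a called rise. Counts of calls within the stretch therefore describe it and test nothing. Over all 14, the stretch summed to 14.1, 24.0 and 14.5 CPM at day 2 and 19.2, 18.7 and 16.9 CPM in fibroblasts, with overlapping groups. Against days 7, 14 and 21, 11 of the 14 peaks were lower at day 2, against 1.16% of all tested peaks, and the stretch averaged 47.3 ± 4.08 CPM at day 7, 62.0 ± 20.9 at day 14 and 104 ± 30.0 at day 21 (SD, n = 3 each). The next tested peak, 351 bases beyond its end at 55580793 to 55581337, was higher at day 2 than in fibroblasts (log2 fold change 3.86, adjusted p 1.62e-06). The rise with the highest average level over all 18 libraries, at 55584482 to 55587987, lies a little further on, with a mean of 113 CPM at day 2, 159 CPM at day 3 and 261 CPM at day 7. Here peaks that rose at day 2 lay beside peaks that were not called, which made up 115408 of the 144810 tested.

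**Figure D4:**
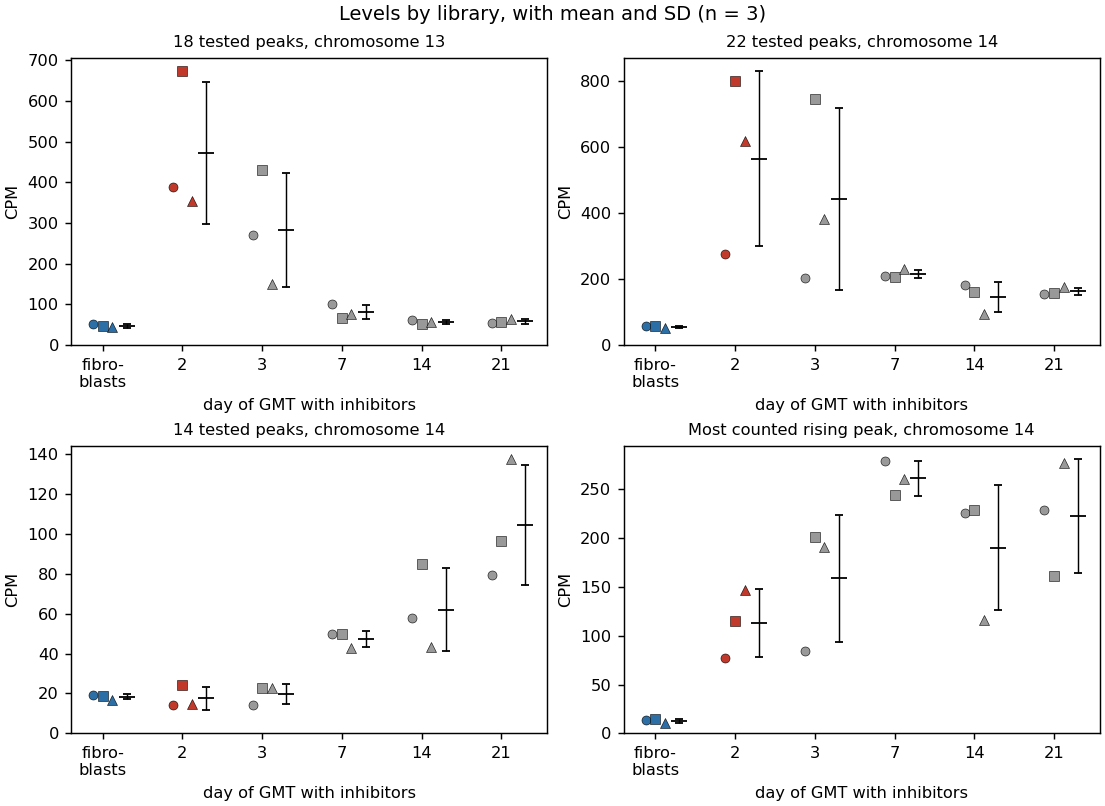
CPM in each library (circles, squares and triangles for replicates 1, 2 and 3) with the mean and SD beside them, in fibroblasts (blue), at day 2 (red) and at later days of GMT with inhibitors (grey), for the sums of 3 stretches and for the rise with the highest average level over all 18 libraries. The upper stretches are highest at day 2, at 472 and 564 CPM on average, while the lower left stretch is at 17.5 CPM at day 2 and 104 CPM at day 21.

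To see which day 2 levels were not kept, day 2 was compared with the mean of days 7, 14 and 21, a comparison in which the fibroblast libraries cancel. It called 3009 peaks higher at day 2, 2.08% of those tested, and 1687 lower, 1.16%. The median log2 fold changes were 1.18 for the higher and -1.28 for the lower (edgeR quasi-likelihood test, adjusted p under 0.05). The changes were smaller than those against fibroblasts, with 115 peaks at least 4-fold higher and 131 at least 4-fold lower. All 3 day 2 libraries lay above all 9 later ones in 1774 of the 3009 (59.0%), and below all 9 in 1184 of the 1687 (70.2%). How often this held over all tested peaks was not counted, so these shares only describe the calls. The 4696 calls became 1589 if day 2 replicate 2 was left out, 1251 if it was day 2 replicate 3 and 3037 if it was day 21 replicate 1, and 7057 without the 3 libraries that stand apart, an alternative added after seeing the data.

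Outside the stretches, the largest rise over later days was a narrow peak at 173411591 to 173411987 on chromosome 1. It had 5.12, 48.7 and 16.5 CPM at day 2, and 0.334 to 2.51 CPM with a median of 0.528 CPM over the 9 later libraries (log2 fold change 4.92, SE 0.59, adjusted p 0.000707). Its fibroblast libraries had 2.19, 1.85 and 1.08 CPM (day 2 over fibroblasts 3.72, adjusted p 0.00714). Day 2 replicate 2 was far above the other 2 day 2 libraries, which still exceeded every later one. The other named rises were the chromosome 13 peaks at 83772366 and 83800334, at 5.04 and 3.92 (SE 0.29 and 0.26).

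Named falls against later days were of different kinds in relation to fibroblasts. At 55571939 to 55574039 on chromosome 14, inside the stretch with no call against fibroblasts, the values were 0.640, 0.770 and 1.02 CPM at day 2, and 3.28 to 9.93 CPM with a median of 5.14 CPM later (log2 fold change -2.67, SE 0.38, adjusted p 3.64e-06). The fibroblast libraries had 1.19, 0.231 and 0.721 CPM there, overlapping those of day 2. Likewise, the chromosome 11 peak at 72228416 to 72229370 had 1.60, 0.462 and 1.22 CPM at day 2 and 0.821, 0.463 and 1.44 CPM in fibroblasts, and 2.92 to 7.36 CPM later (-2.38, SE 0.40, adjusted p 0.000116). At 4876012 to 4876212 on chromosome 16, by contrast, the day 2 libraries were below both: they had 0.640, 1.08 and 1.02 CPM, against 3.19, 4.40 and 2.52 CPM in fibroblasts (day 2 over fibroblasts -1.78, adjusted p 0.00563) and 2.38 to 6.58 CPM later (-2.49, SE 0.40, adjusted p 6.34e-05).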

How the data were processed

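The deposited table has a column for each of 18 ATAC-seq libraries, 3 per group, and holds whole-number read counts per region that the authors left unnormalized. Bowtie2, Picard, MACS2 and edgeR, with build mm9, are named in the submitters' processing notes. Their versions, how duplicates and adapter offsets were treated, and if replicates were pooled for peak calling are details not given in the sources used here. GEO's labels state biological replicates and 2 sequencing cores without tying libraries to cores. The other 18 samples were not analysed here. The last line of the table was incomplete and was left out.

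Regions were filtered with filterByExpr of edgeR 4.0.16 in R 4.3.3 (minimum count 10, minimum total 15), scaled by trimmed means of log ratios (TMM), and fitted over all 18 libraries with a mean per group (glmQLFit, robust; 12 residual degrees of freedom). Two-sided tests used glmQLFTest, with peaks called at a Benjamini-Hochberg adjusted p under 0.05. Of all counts, with the chromosome 1 region with most counts included, 79.2% lay in tested peaks. Log2 fold changes are fitted values. A fold against a group without counts uses a floor of 3 counts over the group, which covers counting error only, since reads are not independent molecules. Windows hold all regions whose midpoint they contain. Peaks were named by a rule: called, with non-overlapping groups, an average log2 CPM of at least 1 and at most 1 peak per window and class, the 5 largest rises with a fibroblast mean of 1 CPM or more and the 5 below it, the 8 largest falls, the 4 most counted rises and 4 most counted falls of at least 2-fold, the 3 largest rises and falls against later days, and 5 windows per direction with at least 10 tested peaks. Stretches, peaks inside them outside the rule, and runs were chosen after values were seen. The comparisons, lists and rules were chosen with earlier results of these data known. Planned gene lists were not used, since positions could not be tied to genes. DESeq2 1.42.0 and limma 3.58.1 (voom) served as alternatives. Coordinates are as deposited.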

Additional observations from a re-analysis of the deposited data

Results flagged for a closer look

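For 6 peaks the difference from fibroblasts at day 2 was unlike the mean of the differences at days 7, 14 and 21 by a test of that difference itself (edgeR quasi-likelihood test), in which the fibroblast libraries cancel. The peaks at 83772366 and 83800334 on chromosome 13 and at 173411591 on chromosome 1 were higher at day 2 than later by 5.04, 3.92 and 4.92 on the log2 scale. Lower than later were those at 55571939 (chromosome 14), 4876012 (chromosome 16) and 72228416 (chromosome 11), at -2.67, -2.49 and -2.38. They are the largest of 4696 such differences under the naming rule.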

How the results depend on the processing

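Of the 26 peaks named against fibroblasts, none changed direction under 16 alternatives each, and 382 of 416 values kept their call. The 34 lost calls concerned 6 of the 8 most counted peaks. All 6 peaks named against later days kept theirs in 126 values, and 139 of 140 window values did. At an adjusted p under 0.01 the calls numbered 17612 (11464 higher, 6148 lower), 1694 against later days and 1368 windows. With no filter on low counts they were 11610 (10369 higher, 1241 lower) and 190 against later days. On library totals alone, 33420 peaks were higher and 2804 lower, and 1626 windows were called. Leaving out single libraries gave 18765 to 26651 peaks (11546 to 18549 higher, 7025 to 8163 lower), 1251 to 4550 against later days and 1225 to 3619 windows. Without the 3 libraries that stand apart, added after seeing the data, 32284 peaks were called, and 7057 against later days. DESeq2 called 24537 peaks and 3859 against later days. Windows numbered 76 at 2-fold or more, 1392 with fibroblast replicates 1 and 2 summed, 6200 at 50000 bases and 1562 at 200000 bases. The causes were not tested. With the replicate number as a block, 28526 peaks, 4461 against later days and 2869 windows were called. Same-numbered day 2 and fibroblast libraries deviated together with correlations of 0.0345, 0.0114 and 0.00911. Between libraries of different numbers the correlations were -0.0463 to 0.0239. This check covers day 2 and fibroblasts alone, and it cannot exclude that same-numbered libraries share a culture. The shallowest libraries, at 2.29 and 2.34 M counts, limit what can be seen at weak peaks.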
